A study of Rattus norvegicus with 24 samples.

Results

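The acute phase and cytokine response genes Lrg1, Lcn2, S100a8, S100a9, Il1r1, Il6st, Il1b, Socs3, Nfkbia and Stat3 were examined in 2 stress-related brain nuclei of rats after liver surgery. They were taken by gene symbol from the gene count table, and all 10 were found among its 35032 genes. They were selected on earlier results of these data: Lrg1 was chosen by its higher counts in operated than in NC rats, so its levels against unoperated rats are described without a test. The other 9 genes were chosen for their place in the response to systemic inflammation. mRNA was sequenced from the hypothalamic paraventricular nucleus (PVN), which controls the hormonal stress response, and from the central nucleus of the amygdala (CEA), which processes fear and stress, in male Sprague-Dawley rats aged 7 weeks. Unoperated normal controls (NC) were compared with rats that had partial hepatectomy alone (HT, about 20% of the left liver lobe removed under isoflurane), with HT rats given electroacupuncture (EA) at the Zusanli (ST36) and Sanyinjiao (SP6) points for 30 min a day before and again right after surgery, and with HT rats given the same needles without current (sham, SEA). Restraint was shared by all 4 treatments, and tissue was taken 24 h after the last session. Each of the 8 groups of region and treatment held 3 libraries, or 24 in all. NC rats had no sham operation or anesthesia stated in the methods, so surgery, anesthesia and wound cannot be told apart in any comparison with NC.

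In the acute phase response, tissue injury leads to release of interleukin-1 beta, interleukin-6 and tumor necrosis factor, which switch liver and vessel cells to the production of defense proteins. Interleukin-6 family cytokines signal through the shared receptor chain encoded by Il6st, which activates the transcription factor Stat3, and Stat3 induces its own inhibitor Socs3. Interleukin-1 acts through Il1r1 on the NF-kappaB pathway, whose inhibitor Nfkbia is itself an NF-kappaB target. Lrg1, a secreted leucine-rich glycoprotein, and Lcn2, a siderophore-binding protein, are induced downstream of these pathways, in the brain largely in blood vessels and glia, while S100a8 and S100a9 form calprotectin, a protein abundant in neutrophils.

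Total counts ran from 13152772 to 18607032 per library. Levels are given as CPM, counts divided by the library total on a per-million scale with TMM factors. A count of 3 corresponded to 0.158 to 0.236 CPM depending on the library, and counts of 0 entered the means as 0 CPM. Lists of region markers followed the labels, with all 6 PVN neuron markers tested (among them Oxt, Avp and Crh) higher in the PVN and all 6 CEA neuron markers (among them Ppp1r1b, Drd1 and Penk) higher in the CEA. PVN NC replicate 2 stood apart from the other PVN NC libraries across many genes: with all 3 PVN NC libraries 2 of 16727 genes passed an adjusted p under 0.05 in HT against NC, and without it 3418 of 16939 did. Values of the tested members against PVN NC without that library are therefore given beside those with it. CEA EA replicate 2 had the lowest share of mitochondrial counts, 3.80% against up to 14.4% elsewhere, and a stray second header in the deposited table exchanged its number with that of CEA EA replicate 3. In the CEA, summed choroid plexus markers ranged from 143.5 to 2210 CPM between libraries, and in the PVN from 101.8 to 151.8 CPM. Group means of these markers in the CEA also differed, with SDs above the mean in NC and SEA. These markers averaged 617 ± 735 CPM in NC libraries and 163 ± 18.9 CPM in HT libraries, beside 334 ± 215 CPM for EA and 904 ± 1131 CPM for SEA. In CEA HT against NC their median log2 fold change was -2.36, and of 7 tested 0 passed and 2 were lower at an unadjusted p under 0.05, beside 3.75% of all genes. In the PVN the summed PVN neuron markers averaged 1131 ± 177 CPM for NC libraries and 760 ± 297 CPM for HT libraries without overlap, beside 1018 ± 114 CPM for EA and 1005 ± 147 CPM for SEA. Of the 6 tested, 0 passed and 3 were lower in HT against NC at an unadjusted p under 0.05, beside 11.0% of all genes, with a median log2 fold change of -0.57, and 3 were higher in EA against HT, beside 5.67% of all genes, with a median of 0.44. The part of either cell makeup in the members' values was not tested. No bulk value here separates fewer cells of a type from less RNA per cell.

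Promoter sequences are shown for Lrg1, Lcn2, Nfkbia and Socs3. Lrg1 was the member that was higher in every operated library of both regions. Lcn2 and Nfkbia were highest in the same HT library as Lrg1 in each region. Socs3 passed between regions among NC rats, as did 4414 of 16748 genes. RefSeq held a promoter window of 300 bases (250 before and 50 after the start site, rat assembly GRCr8) for 9 of the 10 genes, matched by symbol, and none for S100a8. Capitals mark matches on either strand to the NF-kappaB consensus or to the C/EBP-type motif TTNNGCAA, and each sequence is written 5′ to 3′ on the strand of its gene.
Lrg1, chr9:1036882-1037181, minus strand: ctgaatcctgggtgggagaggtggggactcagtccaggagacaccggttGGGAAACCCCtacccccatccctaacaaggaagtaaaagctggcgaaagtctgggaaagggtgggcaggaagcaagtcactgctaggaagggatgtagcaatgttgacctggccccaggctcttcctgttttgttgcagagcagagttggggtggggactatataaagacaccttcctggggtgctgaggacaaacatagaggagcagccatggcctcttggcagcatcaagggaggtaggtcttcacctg
Lcn2, chr3:36081731-36082030, minus strand: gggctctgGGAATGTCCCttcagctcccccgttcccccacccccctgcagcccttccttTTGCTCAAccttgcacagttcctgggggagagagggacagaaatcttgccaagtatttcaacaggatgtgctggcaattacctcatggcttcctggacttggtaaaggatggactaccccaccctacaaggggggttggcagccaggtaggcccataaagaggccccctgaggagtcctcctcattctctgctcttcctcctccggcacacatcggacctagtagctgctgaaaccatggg
Nfkbia, chr6:78597023-78597322, minus strand: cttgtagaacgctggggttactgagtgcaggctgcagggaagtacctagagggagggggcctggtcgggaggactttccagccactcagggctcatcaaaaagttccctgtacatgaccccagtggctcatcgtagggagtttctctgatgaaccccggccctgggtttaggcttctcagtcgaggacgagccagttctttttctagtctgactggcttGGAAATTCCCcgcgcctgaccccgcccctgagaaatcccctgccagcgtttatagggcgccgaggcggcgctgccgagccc
Socs3, chr10:103694719-103695018, minus strand: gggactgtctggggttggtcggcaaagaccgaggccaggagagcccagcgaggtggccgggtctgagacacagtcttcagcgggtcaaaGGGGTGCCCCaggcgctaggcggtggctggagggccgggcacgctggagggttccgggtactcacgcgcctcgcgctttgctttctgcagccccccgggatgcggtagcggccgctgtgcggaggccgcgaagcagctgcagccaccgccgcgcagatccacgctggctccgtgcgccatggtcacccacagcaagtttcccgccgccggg
A match to the NF-kappaB consensus was found in 6 of the 9 windows (Lrg1, Lcn2, Il1r1, Il6st, Socs3 and Nfkbia), whereas 7.51% of 33469 RefSeq windows of this length held one. The C/EBP-type motif was found in the windows of Lcn2 and Il1b and in 10.6% of all windows. The STAT motif TTCNNNGAA was found in 0 of the 9 windows and in 8.87% of all windows. These matches are letters in a window and do not show binding. Each window was set by an annotated start site that was not checked, and sequence outside the windows was not searched.

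Lrg1 was higher in every operated library than in any NC library of the same region. The gene (ENSRNOG00000049918) lies at 10952374 to 10954681 on chromosome 9 in the coordinates of the deposited table. In the PVN of NC rats it was at 0.822, 0.877 and 0.553 CPM, from 10 to 16 counts per library. HT libraries of the PVN were at 2.75, 4.43 and 6.56 CPM, EA libraries at 7.87, 3.27 and 4.04 CPM, and SEA libraries at 3.23, 2.72 and 2.79 CPM. The NC mean was 0.751 ± 0.174 CPM, and the means of HT, EA and SEA were 4.58 ± 1.91, 5.06 ± 2.46 and 2.91 ± 0.281 CPM (SD, n = 3 per group).
In the CEA the same order was seen at a higher level. NC libraries were at 1.32, 2.78 and 2.65 CPM, and HT libraries at 5.42, 18.6 and 6.13 CPM. EA libraries were at 16.1, 9.43 and 6.07 CPM, and SEA libraries at 4.94, 5.65 and 4.89 CPM. The NC mean was 2.25 ± 0.809 CPM, and the means of HT, EA and SEA were 10.04 ± 7.39, 10.54 ± 5.12 and 5.16 ± 0.423 CPM (SD, n = 3 per group). HT, EA and SEA overlapped NC in neither region, but HT and EA overlapped each other in both, and their spread came mostly from single high libraries (CEA HT replicate 2, and EA replicate 1 in both regions).

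**Figure D1:**
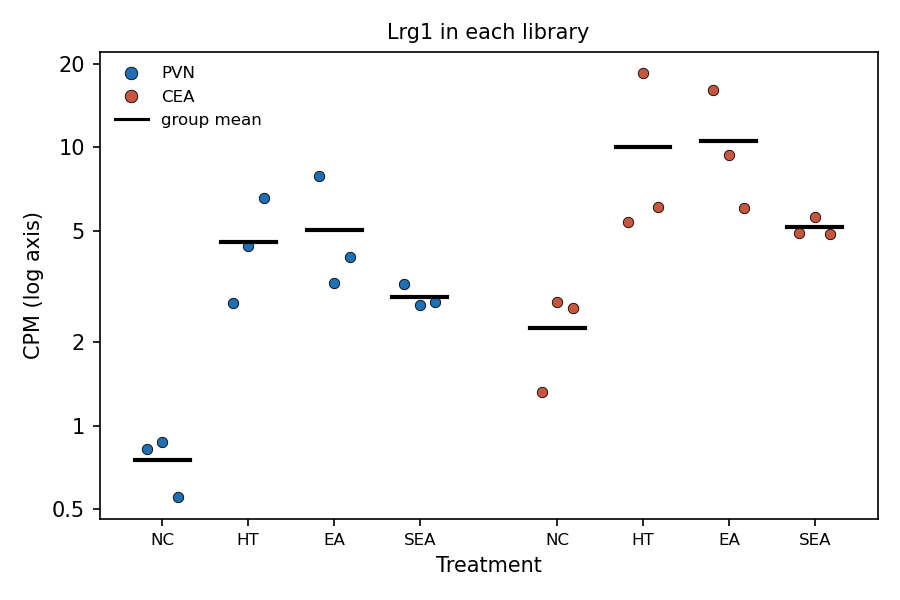
Lrg1 in each of the 24 libraries, in CPM on a log axis, by treatment, with PVN libraries in blue, CEA libraries in red and the mean of each group as a black line. All 18 operated libraries lie above the NC libraries of their own region, and the SEA libraries lie within a narrow band.

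As a log2 fold change with its standard error, Lrg1 differed by 2.60 ± 0.39 between HT and NC in the PVN and by 2.17 ± 0.55 in the CEA. Over all 9 operated libraries against the 3 NC libraries the values were 2.43 ± 0.37 in the PVN and 1.86 ± 0.45 in the CEA. Without PVN NC replicate 2 the PVN values were 2.73 and 2.57, and the CEA value of HT against NC was 1.38 without CEA HT replicate 2. These values chose the gene and carry no test. All operated libraries lay above all NC libraries for 2.16% of genes of the PVN and for 0.252% of those of the CEA, and all HT libraries did so for 8.88% and 4.72% of genes. The 9 operated libraries and the HT libraries share the same NC libraries in each region.

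Among operated rats, mean Lrg1 was lower in sham-needled rats than in those given current, but the difference did not pass. The EA and SEA libraries, which the choice of the gene did not compare, did not overlap in either region, as was true of 10.2% of PVN genes and 6.83% of CEA genes. The log2 fold change of EA against SEA was 0.79 ± 0.32 (SE) in the PVN, with an unadjusted p of 0.0363 and an adjusted p of 0.922 by edgeR's quasi-likelihood test. In the CEA it was 1.04 ± 0.35, with an unadjusted p of 0.0182 and an adjusted p of 0.9999. It leaned on EA replicate 1, without which it was 0.33 in the PVN and 0.59 in the CEA.
Against HT rats, SEA rats had lower Lrg1 by point estimate, with log2 fold changes of -0.65 ± 0.31 in the PVN and -0.99 ± 0.47 in the CEA and adjusted p-values of 0.981 and 0.959 by edgeR, and the groups overlapped. These values shrank to -0.30 without PVN HT replicate 3 and to -0.20 without CEA HT replicate 2. EA and HT were close in mean, with log2 fold changes of 0.14 ± 0.39 in the PVN and 0.06 ± 0.53 in the CEA and adjusted p-values of 0.995 and 0.994 by edgeR. The difference between the regions in EA against HT was -0.09 ± 0.75, adjusted p = 0.995 by the interaction term.

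S100a8 and S100a9, which encode the subunits of calprotectin and are neighbors on chromosome 2, were higher in most operated libraries but came from few reads. S100a8 had 2, 5 and 0 counts in the PVN NC libraries and 1, 2 and 0 in the CEA NC libraries. PVN libraries had 13, 11 and 9 counts in HT, 23, 7 and 22 in EA, and 3, 2 and 3 in SEA. CEA libraries had 7, 17 and 16 counts in HT, 23, 24 and 10 in EA, and 5, 6 and 5 in SEA. In the CEA all 9 operated libraries were above all 3 NC libraries, and in the PVN 6 of 9 were, the 3 SEA libraries lying inside the NC range. All operated libraries lay above all NC libraries for 0.252% of CEA genes and 2.16% of PVN genes. Summed over libraries and scaled to their sizes, S100a8 was 13.3 times higher in operated than in NC libraries of the CEA (95% exact Poisson interval 4.43 to 65.4, from 113 and 3 counts) and 4.58 times in the PVN (2.14 to 11.7, from 93 and 7 counts). These intervals cover counting error only.
By edgeR the operated against NC log2 fold change of S100a8 was 3.42 ± 0.68 in the CEA, with an unadjusted p of 0.000314 and an adjusted p of 0.764, and 1.79 ± 0.67 in the PVN, with an adjusted p of 0.110. It did not pass in either region. With at most 5 counts in any NC library, S100a8 could enter these fits only through the operated libraries where it was high, so its tests against NC could point only one way and the p-values are no support for the direction. In the PVN it passed when NC replicate 2 was left out, at 2.87 ± 0.89 with an adjusted p of 0.0264, where 33.7% of all genes passed.

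S100a9 was likewise higher in the HT libraries than in NC. It had 5, 8 and 3 counts in the PVN NC libraries and 1, 5 and 3 in those of the CEA. PVN libraries had 17, 11 and 16 counts in HT, 51, 13 and 33 in EA, and 12, 6 and 3 in SEA. CEA libraries had 15, 40 and 25 counts in HT, 51, 4 and 31 in EA, and 21, 14 and 5 in SEA. All HT libraries were above all NC libraries in both regions, as was true of 8.88% of PVN genes and 4.72% of CEA genes, and 7 of 9 operated libraries in the PVN and 8 of 9 in the CEA were above the NC range. CEA EA replicate 2 was the exception in that group, with 4 counts of S100a9 beside 24 of S100a8. S100a9 had at most 8 counts in any NC library and likewise entered the fits through the operated libraries, so its tests against NC carry the same limit. The HT against NC log2 fold change of S100a9 was 1.52 ± 0.43 in the PVN (adjusted p = 0.418 by edgeR) and 3.15 ± 0.63 in the CEA (adjusted p = 0.918 by edgeR). Over all operated libraries it was 1.53 ± 0.56 (adjusted p = 0.104 by edgeR) and 2.89 ± 0.81 (adjusted p = 0.9998 by edgeR). Without PVN NC replicate 2, HT against NC in the PVN was 1.88 ± 0.52 with an adjusted p of 0.0419 by edgeR, where 20.2% of all genes passed, and operated against NC was 1.89 ± 0.70 with an adjusted p of 0.0575. The HT effect did not differ between regions by the interaction test, at 1.61 ± 0.79 on the log2 scale with an adjusted p of 0.421.

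**Figure D2:**
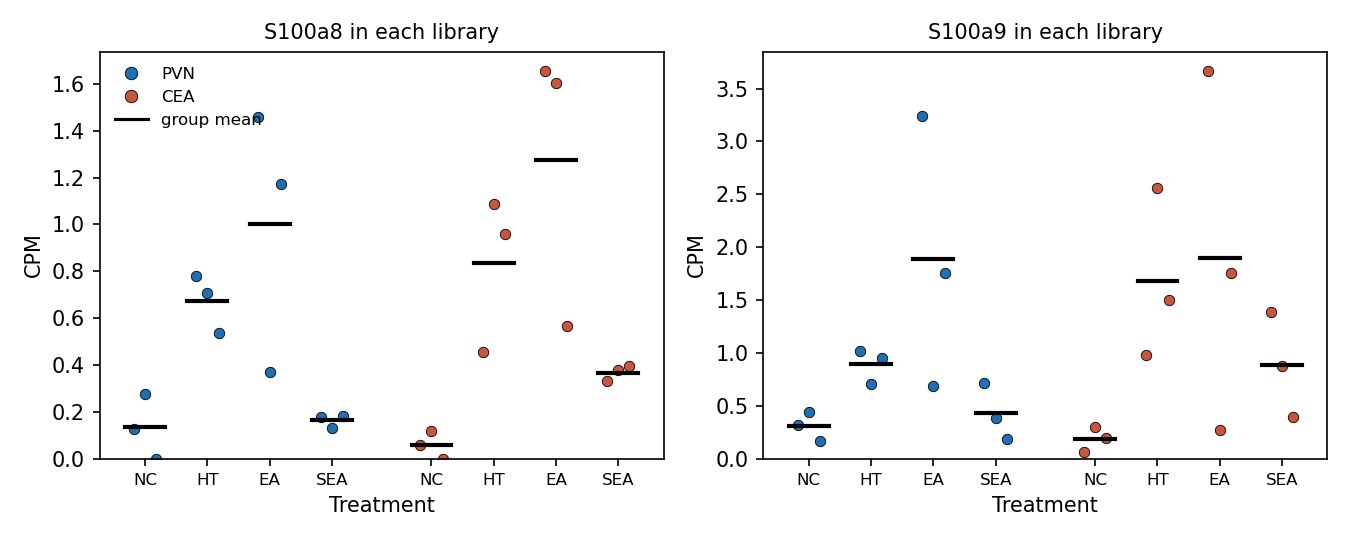
S100a8 (left) and S100a9 (right) in each library, in CPM, by treatment, with PVN libraries in blue, CEA libraries in red and group means as black lines. HT and EA libraries reach highest, whereas SEA libraries stay at or below 0.394 CPM for S100a8 and 1.38 CPM for S100a9.

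Both calprotectin genes had lower means in SEA than in HT and EA, although no difference passed. S100a8 did not overlap between SEA and HT in either region, as was true in the lower direction of 4.74% of PVN genes and 3.87% of CEA genes. It did not overlap between EA and SEA either, as was true in the higher direction of 5.14% and 3.01% of genes. It was too low for the filter on low counts in those comparisons, and without the filter EA against SEA was 2.55 ± 0.61 in the PVN (adjusted p = 0.268 by edgeR) and 1.79 ± 0.54 in the CEA (adjusted p = 0.9999 by edgeR). Without the filter SEA against HT was -1.99 ± 0.55 in the PVN (adjusted p = 0.898 by edgeR) and -1.20 ± 0.57 in the CEA (adjusted p = 0.890 by edgeR). S100a9 was tested with the filter in place and overlapped between SEA and HT and between EA and SEA in both regions. Its SEA against HT value was -1.04 ± 0.48 in the PVN (adjusted p = 0.981 by edgeR) and -0.94 ± 0.55 in the CEA (adjusted p = 0.959 by edgeR), and EA against SEA was 2.10 ± 0.64 in the PVN (adjusted p = 0.917 by edgeR) and 1.09 ± 0.81 in the CEA (adjusted p = 0.9999 by edgeR). When EA replicate 1 was left out, EA against SEA was 0.21 ± 0.82 in the CEA and 1.48 ± 0.62 in the PVN.

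Other genes of neutrophils were measured in the same libraries. The genes of the 17-gene neutrophil list other than S100a8 and S100a9 summed to 14.4 ± 2.44 CPM in PVN NC and 13.7 ± 2.49, 14.9 ± 2.11 and 14.5 ± 0.341 CPM in HT, EA and SEA. In the CEA they summed to 15.1 ± 1.35 CPM in NC and 16.2 ± 4.61, 16.1 ± 2.10 and 16.2 ± 1.05 CPM in HT, EA and SEA. Most of that sum was Itgb2 and Csf3r, which microglia also express. Within the list, the granule protease gene Elane had at most 1 count in any library. The protease gene Ctsg and the receptor gene Fpr2 had 0 counts in all 24. Mpo, which encodes myeloperoxidase, had 10 to 12 counts in PVN NC libraries and 1 to 13 in operated ones, and 3 against 0 to 3 in the CEA. Mmp8, a collagenase of neutrophils, had 1 to 4 counts in CEA NC libraries, 5 to 6 in HT, 4 to 6 in EA and 0 to 4 in SEA. Of the 15 neutrophil genes other than the members, mean CPM was higher in HT than in NC for 5 and lower for 7 in the PVN, and higher for 7 and lower for 5 in the CEA, with 3 at 0 counts in both groups of each region. In the PVN the receptor genes Csf3r (3.29 ± 0.148 CPM in NC and 3.97 ± 1.45 CPM in HT) and Fpr1 (0.307 ± 0.0817 and 0.386 ± 0.362 CPM) were among the higher means. Mpo, Elane, Camp and Ngp, 4 of the granule protein genes of that list, summed to 1.33, 1.75 and 1.33 CPM in the PVN NC libraries. Their sum was 0.778, 0.835 and 0.477 CPM in PVN HT, with Elane at 0 counts in both groups. In PVN EA it was 1.12 ± 0.472 CPM and in SEA 1.06 ± 0.263 CPM, both overlapping NC. In the CEA it was 0.773 ± 0.356 CPM in NC and 0.786 ± 0.480 CPM in HT. Of the other granule protein genes, PVN means were lower in HT than in NC for Prtn3 (1.90 and 2.44 CPM) and Mmp9 (0.121 and 0.327 CPM). They were not lower for Ltf (0.0796 and 0.0789 CPM) and Mmp8 (0.0797 and 0.0184 CPM). Summed red cell markers, which follow the blood left in the tissue, were 1100 ± 212 CPM in PVN NC and 673 ± 141, 1046 ± 258 and 878 ± 144 CPM in HT, EA and SEA. In the CEA they were 1254 ± 223 CPM in NC and 1033 ± 260, 1002 ± 226 and 1101 ± 189 CPM in HT, EA and SEA. Summed microglia markers were 519 ± 65.8 CPM in CEA NC and 650 ± 57.4 CPM in CEA HT without overlap. The part of blood, neutrophils or microglia in the calprotectin counts was not tested.

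Lcn2, a neutrophil gelatinase-associated protein that glia and vessels also make in inflammation, did not pass in any comparison. PVN NC libraries were at 1.39, 1.37 and 1.27 CPM, HT libraries at 0.838, 0.835 and 1.91 CPM, EA libraries at 3.75, 0.896 and 1.92 CPM, and SEA libraries at 1.20, 1.23 and 1.15 CPM. CEA NC libraries were at 1.26, 1.72 and 0.994 CPM, HT libraries at 1.501, 3.52 and 1.56 CPM, EA libraries at 4.10, 1.404 and 1.13 CPM, and SEA libraries at 1.32, 1.69 and 2.21 CPM. In both regions 3 of 9 operated libraries were above the NC range, and in the PVN the other 6 were below it. The operated against NC log2 fold change was 0.12 ± 0.39 in the PVN and 0.62 ± 0.44 in the CEA, with adjusted p-values of 0.866 and 0.9998 by edgeR. The PVN value was 0.13 ± 0.47 without PVN NC replicate 2, with an adjusted p of 0.859.
The libraries with the highest Lcn2 were also those with the highest Lrg1 within HT and EA: HT replicate 3 and EA replicate 1 in the PVN, and HT replicate 2 and EA replicate 1 in the CEA. After removal of group means, log2 CPM of the 2 genes correlated at r = 0.85 in the PVN and r = 0.77 in the CEA over 12 libraries each. These libraries share treatment groups and depth with each other, and the coefficients are given as a description.

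Il6st, Nfkbia and Stat3 were expressed at higher levels than the other members. Per kb of gene length, mean levels over the 24 libraries were 25.3 CPM for Il6st, 17.9 for Nfkbia, 17.8 for Stat3, 3.78 for Lrg1, 1.93 for S100a9, 1.88 for Lcn2, 1.53 for Socs3, 1.49 for S100a8, 1.41 for Il1r1 and 0.153 for Il1b. Nfkbia and Stat3 were thus nearly equal on this scale, as were S100a9 and Lcn2, and the 3 genes Socs3, S100a8 and Il1r1.
Il6st, which encodes gp130, was even across the groups apart from 3 libraries. PVN NC libraries were at 35.7, 85.9 and 39.6 CPM, and the 9 operated PVN libraries ranged from 74.4 to 87.4 CPM with a median of 85.4. CEA NC libraries were at 86.4, 82.0 and 81.7 CPM, and CEA HT libraries at 88.2, 41.7 and 85.7 CPM. EA and SEA libraries of the CEA ranged from 76.6 to 98.0 CPM. The low libraries were thus PVN NC replicates 1 and 3 and CEA HT replicate 2, while PVN NC replicate 2 lay among the operated libraries. The operated against NC log2 fold change in the PVN was 0.63 ± 0.21, with an adjusted p of 0.0893 by edgeR and 0.0216 by DESeq2. Without PVN NC replicate 2 it was 1.15 ± 0.08 with an adjusted p of 1.68e-06 by edgeR. Thus the call for Il6st rested on 1 library and on the tool. DESeq2 with all libraries called 13.5% of genes in that comparison. In the CEA the value was -0.04 ± 0.18 (adjusted p = 0.9998 by edgeR).

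Stat3, the transcription factor activated downstream of Il6st, did not pass in any treatment comparison but was lower in the CEA. PVN libraries ranged from 69.5 to 92.5 CPM in NC and 81.5 to 99.8 CPM in operated rats, and CEA libraries from 65.7 to 76.4 CPM in NC and 60.6 to 76.8 CPM in operated rats. The log2 fold change of operated against NC was 0.13 ± 0.09 in the PVN and -0.07 ± 0.09 in the CEA, with adjusted p-values of 0.361 and 0.9998 by edgeR. The PVN value without PVN NC replicate 2 was 0.23 ± 0.09 with an adjusted p of 0.0593. CEA against PVN over all 24 libraries, with treatment as a covariate, gave -0.31 ± 0.05 with an adjusted p of 3.18e-05 by edgeR. Among the NC libraries alone this was -0.17 ± 0.13 with an adjusted p of 0.396.

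Socs3, the feedback inhibitor of this pathway, was higher in most operated libraries of the CEA and flat in the PVN. CEA NC libraries were at 0.780, 0.355 and 0.663 CPM, and HT libraries at 1.31, 0.320 and 1.68 CPM. CEA EA libraries were at 2.16, 1.27 and 1.25 CPM and SEA libraries at 1.05, 1.004 and 1.73 CPM. All operated libraries of the CEA were therefore above the NC range except HT replicate 2, which was below it and was also the library with low Il6st. The operated against NC log2 fold change was 1.11 ± 0.47, with an unadjusted p of 0.0377 and an adjusted p of 0.9998 by edgeR, so Socs3 did not pass. PVN libraries ranged from 1.22 to 1.96 CPM in NC and from 1.01 to 2.16 CPM in operated rats, with a log2 fold change of 0.01 ± 0.28 (adjusted p = 0.978 by edgeR), and of -0.07 ± 0.34 without PVN NC replicate 2 (adjusted p = 0.909 by edgeR). The HT effect did not differ between regions by the interaction test (0.84 ± 0.74, adjusted p = 0.608). Among NC rats alone Socs3 was lower in the CEA than in the PVN, from 6 to 13 counts per CEA library. The log2 fold change was -1.31 ± 0.40 with an adjusted p of 0.0472 by edgeR, where 4414 of 16748 genes passed. Over all 24 libraries it was -0.47 ± 0.23 with an adjusted p of 0.0930 by edgeR, where 56.9% of genes passed.

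The other genes of the Janus kinase and STAT pathway did not pass by edgeR either. Of 22 tested genes of this list, which holds Stat3 and Socs3, 0 passed edgeR's adjusted p in HT against NC or in operated against NC in either region. DESeq2 called Jak1, Stat5b, Socs7, Pias1 and Ptpn11 in operated against NC of the PVN, where it called 13.5% of all genes. At an unadjusted p under 0.05, 6 were higher and 0 lower in operated PVN libraries, where 15.6% of all genes were higher at that threshold, and 2 were higher and 0 lower in the CEA, where 1.55% of all genes were higher. The median log2 fold change of the list was 0.13 in the PVN and 0.01 in the CEA, beside -0.018 and -0.0011 over all genes tested. Of 20 tested cytokine receptor genes, 0 passed in these comparisons by edgeR, and 2 were higher in the PVN and 1 in the CEA at the unadjusted threshold, beside the same 15.6% and 1.55% of all genes.

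**Figure D3:**
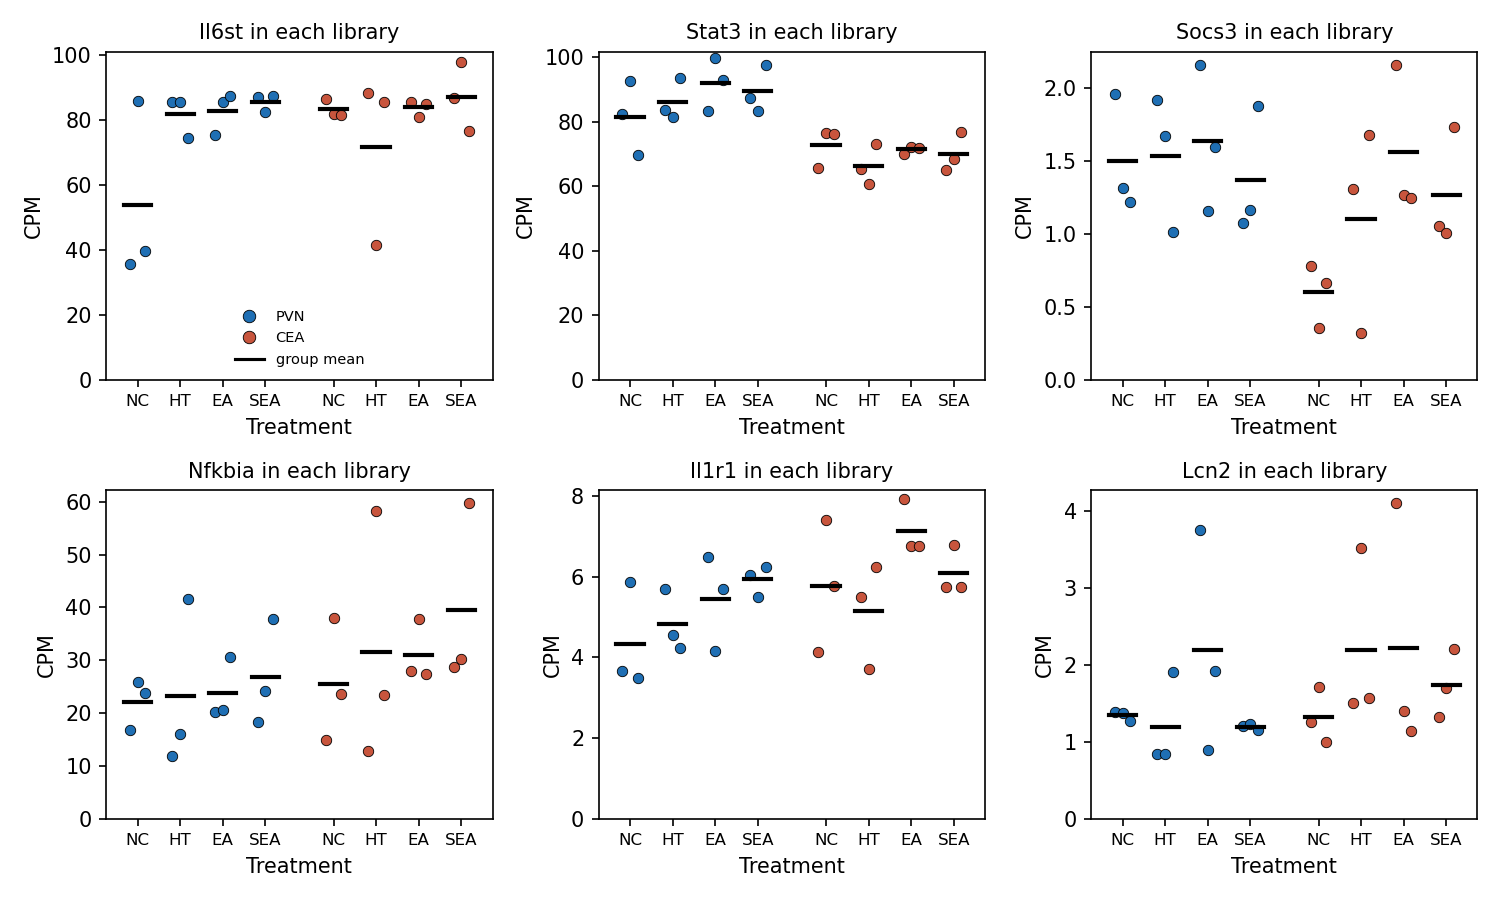
Il6st, Stat3, Socs3, Nfkbia, Il1r1 and Lcn2 in each library, in CPM on axes from 0, by treatment, with PVN libraries in blue, CEA libraries in red and group means as black lines. The low Il6st values are those of PVN NC replicates 1 and 3 and CEA HT replicate 2, and Socs3 is lower in CEA NC than in most other groups.

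On the interleukin-1 side, the ligand was barely detected, and neither the receptor nor the NF-kappaB inhibitor passed a treatment comparison with all libraries. Il1b, the interleukin-1 beta gene, had 0 to 8 counts per library, with 1, 1 and 4 in PVN NC and 6, 5 and 4 in CEA NC. Its operated libraries summed to 34 counts in the PVN and 29 in the CEA against 6 and 15 in NC, a ratio of 1.95 (95% exact Poisson interval 0.811 to 5.69) and 0.682 (0.354 to 1.37), so a difference was not detectable at this depth. It was below the filter on low counts in all 13 comparisons.
Il1r1, the signaling receptor for interleukin-1, ranged from 3.48 to 5.87 CPM in PVN NC libraries and from 4.16 to 6.48 CPM in operated ones. In the CEA it ranged from 4.14 to 7.40 CPM in NC and from 3.71 to 7.92 CPM in operated libraries. CEA EA libraries (7.92, 6.75 and 6.75 CPM) were all above the HT libraries (5.48, 3.71 and 6.25 CPM), as was true of 5.54% of genes, with a log2 fold change of 0.46 ± 0.27 and an adjusted p of 0.930 by edgeR. Without PVN NC replicate 2 the operated against NC log2 fold change in the PVN was 0.59 ± 0.19 with an adjusted p of 0.0320, while with all libraries it was 0.30 ± 0.19 with an adjusted p of 0.310.
Nfkbia, which encodes the inhibitor that holds NF-kappaB in the cytosol, varied more within groups than between them. PVN NC libraries were at 16.8, 25.8 and 23.8 CPM, HT libraries at 11.9, 16.0 and 41.7 CPM, EA libraries at 20.3, 20.6 and 30.7 CPM, and SEA libraries at 18.3, 24.2 and 37.9 CPM. CEA NC libraries were at 14.8, 38.0 and 23.7 CPM, HT libraries at 12.8, 58.3 and 23.4 CPM, EA libraries at 28.0, 37.9 and 27.3 CPM, and SEA libraries at 28.7, 30.2 and 59.8 CPM. The groups overlapped in every treatment comparison, and the operated against NC log2 fold change was 0.15 ± 0.33 in the PVN and 0.41 ± 0.42 in the CEA (adjusted p = 0.802 and 0.9998 by edgeR). With PVN NC replicate 2 left out, the PVN value was 0.27 ± 0.40 (adjusted p = 0.638 by edgeR). Its highest HT library in each region was the one with the highest Lrg1 and Lcn2. Of 22 tested NF-kappaB pathway genes, 0 passed by edgeR in operated against NC in either region (DESeq2 called Traf6 in the PVN), and 2 in the PVN and 0 in the CEA were higher at the unadjusted threshold, beside 15.6% and 1.55% of all genes.

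Counted together, few members passed any comparison. Apart from Lrg1, 7 members were tested in HT against NC in each region, and 0 passed an adjusted p under 0.05 by edgeR, beside 0.0120% of PVN genes and 0% of CEA genes. DESeq2 also called 0 of them in each region, beside 0.167% and 0.146% of genes, and 1 member in each (S100a9) had an unadjusted edgeR p under 0.05, beside 11.0% of PVN genes and 3.75% of CEA genes. In operated against NC, 8 members were tested in each region and 0 passed by edgeR, beside 0.0639% of PVN genes and 0% of CEA genes. At an unadjusted p, 3 were higher in the PVN (Il6st, S100a8 and S100a9) beside 15.6% of all genes, and 3 in the CEA (S100a8, S100a9 and Socs3) beside 1.55%. DESeq2 called Il6st in the PVN, beside 13.5% of genes, and 0 members in the CEA, beside 0.0645%. Without PVN NC replicate 2, edgeR called 3 members in the PVN for HT against NC (Il6st, S100a8 and S100a9) and 3 for operated against NC (Il1r1, Il6st and S100a8), beside 20.2% and 33.7% of all genes.
Members that passed the filter on low counts only through the operated groups had to lie higher there, so these counts are not independent support for a direction. Among operated groups, with Lrg1 included, 0 of 8 to 9 tested members passed by edgeR in EA against HT, SEA against HT or EA against SEA in either region, and 0 by DESeq2. The share of all genes called by edgeR in these comparisons was 0.0961% in PVN EA against HT and 0% in the others. Unadjusted, 2 members were higher in PVN EA against SEA (Lrg1 and S100a9) beside 2.20% of all genes, and 1 in CEA EA against SEA (Lrg1) beside 1.15%. PVN S100a9, at 3 to 12 counts in SEA, was kept by the filter through the EA libraries where it was high, so its p there is no support for the direction. In EA against HT 0 members had an unadjusted p under 0.05, beside 5.67% of PVN genes and 3.19% of CEA genes, and in SEA against HT 0 did, beside 4.38% and 3.07%. For the members other than Lrg1, the difference between regions in the HT effect had adjusted p-values from 0.421 to 0.907 by edgeR, with 0 of 8 tested at an unadjusted p under 0.05 beside 12.1% of all genes, and for the EA effect 0 of 9 had one beside 4.52%. DESeq2 called 0 members for either difference.

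**Figure D4:**
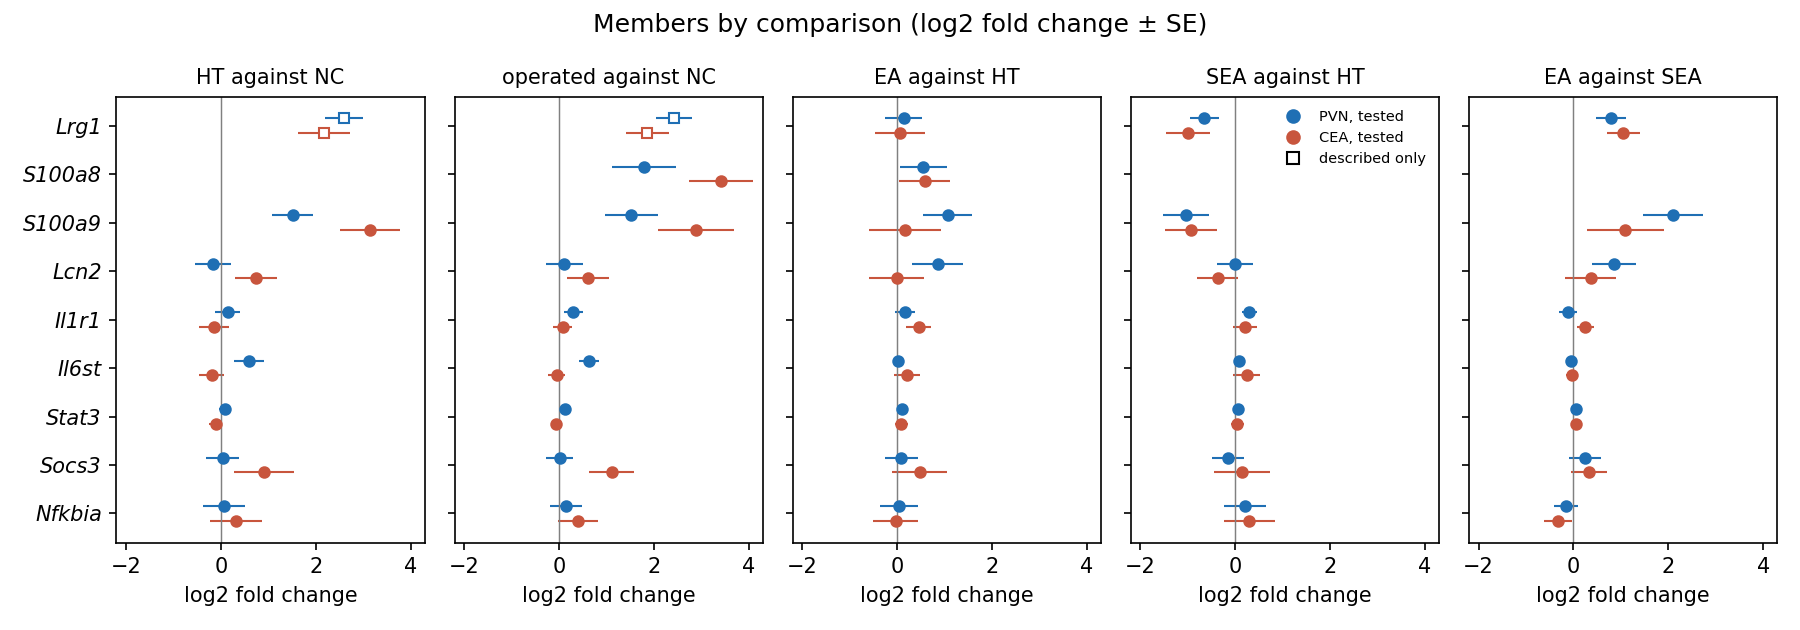
Log2 fold change of 9 members (rows) in 5 treatment comparisons (panels), in the PVN (blue) and CEA (red), with bars of 1 SE from edgeR. Open squares mark Lrg1 against NC, which is described and not tested, missing points are genes below the filter on low counts, and Lrg1, S100a8 and S100a9 lie farthest from 0 against NC.

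Of the wider acute phase list, 1 of 12 tested genes was higher and 2 were lower in HT against NC of the PVN at an unadjusted p under 0.05, beside 11.0% of all genes, with a median log2 fold change of -0.0020. In operated against NC 2 of 13 were higher and 1 was lower in the PVN, beside 29.8% of all genes. In the CEA 3 of 12 were higher and 1 was lower in HT against NC, beside 3.75% of all genes, with a median of 0.72, and 0 were higher and 1 was lower in operated against NC, beside 2.82%. The antiprotease A2m was at 1.03 ± 0.125 CPM in PVN NC and 4.02 ± 1.97 CPM in PVN HT without overlap, a log2 fold change of 1.95 ± 0.39 (adjusted p = 0.418 by edgeR). Over all operated libraries it was at 3.19 ± 1.22 CPM, a log2 fold change of 1.60 ± 0.30 (adjusted p = 0.0772 by edgeR). In the CEA the metallothionein Mt2A was at 30.9 ± 5.43 CPM in NC and 93.5 ± 68.8 CPM in HT, a log2 fold change of 1.62 ± 0.46 (adjusted p = 0.918 by edgeR). It was at 26.8 ± 2.66 CPM in SEA and 61.2 ± 37.2 CPM in EA, with log2 fold changes of -1.84 ± 0.46 in SEA against HT (adjusted p = 0.959 by edgeR) and 1.21 ± 0.39 in EA against SEA (adjusted p = 0.9999 by edgeR). Haptoglobin (Hp) was also lower in CEA SEA than HT, at 1.43 ± 0.357 and 3.09 ± 1.01 CPM, a log2 fold change of -1.15 ± 0.36 (adjusted p = 0.959 by edgeR), and Cebpb, a transcription factor of acute phase genes, was at 17.4 ± 9.03 CPM in CEA HT and 8.66 ± 0.695 CPM in NC (adjusted p = 0.918 by edgeR). Without Lrg1, 0 of 13 tested acute phase genes in the PVN and 0 of 12 in the CEA passed by edgeR in operated against NC, and their median log2 fold changes were 0.10 and 0.43.

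Abcc9, a potassium channel subunit of pericytes, passed narrowly in operated against NC of the PVN, and apart from Lrg1, which was not tested there, it was the one gene of the lists to pass in operated against NC or HT against NC by edgeR with all libraries. DESeq2 called 19 of 178 tested list genes other than the members in PVN operated against NC, beside 13.5% of all genes, and 3 of 174 (A2m, Abcc9 and Gfap) in PVN HT against NC, beside 0.167%. Its adjusted p in operated against NC was 1.24e-06 for Abcc9, 0.000919 for A2m, 0.00381 for Vwf, 0.000282 for Gfap and 0.101 for Kdr, and in HT against NC it was 0.0447 for Abcc9, 0.0216 for A2m and 0.00102 for Gfap. Abcc9 was at 33.7 ± 2.28 CPM in operated and 20.6 ± 3.84 CPM in NC libraries of the PVN, with a log2 fold change of 0.70 ± 0.11 and an adjusted p of 0.0466 by edgeR. The call was lost under 14 of 17 alternatives, among them the replicate block (adjusted p = 0.0686) and leaving out PVN NC replicate 1 or 3 or any one EA, HT or SEA library of the PVN (adjusted p up to 0.299), while the log2 fold change stayed between 0.56 and 0.82. Vwf, which encodes von Willebrand factor, was at 83.7 ± 14.2 and 55.5 ± 5.06 CPM, a log2 fold change of 0.59 ± 0.14 (adjusted p = 0.0772 by edgeR), without overlap. Kdr, a receptor of vascular endothelial growth factor, was at 12.3 ± 2.78 CPM in operated and 16.9 ± 0.351 CPM in NC (adjusted p = 0.135 by edgeR). The astrocyte gene Gfap was at 324 ± 47.1 CPM in operated and 460 ± 45.0 CPM in NC libraries of the PVN, a log2 fold change of -0.51 ± 0.09 (adjusted p = 0.0772 by edgeR, and 0.0351 without the filter on low counts). When PVN NC replicate 2 was left out, where 33.7% of all genes passed, the adjusted p by edgeR in operated against NC was 0.000134 for Abcc9, 0.00492 for A2m, 0.0217 for Vwf, 0.00368 for Gfap and 0.151 for Kdr. In the CEA Gfap was at 376 ± 68.4 CPM in HT and 679 ± 204 CPM in NC (adjusted p = 0.918 by edgeR). Of 8 tested astrocyte markers 0 passed by edgeR in operated against NC of the PVN, 2 were higher and 2 lower at an unadjusted p under 0.05 beside 29.8% of all genes, and their median log2 fold change was 0.0046. In CEA HT against NC 1 was higher and 2 were lower at that threshold, beside 3.75% of all genes, with a median of 0.03. Summed over 12 endothelial markers, levels were 512 ± 21.5 CPM in PVN NC and 547 ± 28.2, 529 ± 11.3 and 552 ± 17.8 CPM in HT, EA and SEA. Of the 12 tested partners of Lrg1 in TGF-beta signaling, such as Eng and Acvrl1, 0 passed by edgeR in operated against NC in either region, while DESeq2 called Smad2 and Smad5 in the PVN.

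Heph, Slc27a1, Fn1, Itgb5, Ptpn11 and Tinagl1 varied across libraries most like Lrg1. Among 15293 genes kept in both regions, these 6 had the highest value of the lower of the PVN and CEA Pearson correlations of log2 CPM with Lrg1, each over 12 libraries. Heph, the copper-dependent ferroxidase hephaestin, was first, with r = 0.92 in the PVN and 0.82 in the CEA. It was at 14.9 ± 1.08 CPM in PVN NC and 34.5 ± 4.10, 39.2 ± 7.22 and 29.98 ± 4.34 CPM in HT, EA and SEA. In the CEA it was at 16.6 ± 2.53 CPM in NC and 35.8 ± 4.62, 39.6 ± 6.59 and 26.4 ± 4.95 CPM in HT, EA and SEA, so that the order of group means was that of Lrg1 in both regions.
Fn1, which encodes fibronectin, was at 30.2 ± 3.91 CPM in PVN NC and 58.7 ± 23.2, 57.5 ± 3.36 and 46.9 ± 7.19 CPM in HT, EA and SEA, with r = 0.88 in the PVN and 0.82 in the CEA. The lower correlation of the other 4 genes was 0.82 for Slc27a1, 0.79 for Itgb5, 0.79 for Ptpn11 and 0.78 for Tinagl1. S100a8 ranked 9 of 15293 by this measure and S100a9 ranked 11, while Lcn2 ranked 392. Il6st ranked 11448, with r = 0.65 in the PVN and -0.49 in the CEA. These correlations include the differences between treatment groups, libraries of a region share those groups, and they are a description.

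Between regions, Lrg1 was higher in the CEA. CEA against PVN gave a log2 fold change of 1.12 ± 0.22 over all 24 libraries (adjusted p = 0.000183 by edgeR) and 1.57 ± 0.39 among NC libraries alone (adjusted p = 0.0246 by edgeR). Of 9 members tested, Lrg1 was higher and Stat3 lower, and the other 7 did not pass, beside 56.9% of all genes that passed, 27.2% higher and 29.7% lower, so differing between the regions was not particular to these genes. Adjusted p-values of the other 7 ran from 0.0930 for Socs3 to 0.468 for Il6st.
Vessel and immune cell markers were also higher in the CEA, with 10 of 10 tested endothelial, 8 of 9 mural cell and 10 of 10 microglia markers passing there and 0 lower. Summed endothelial markers were 535 ± 24.2 CPM in the PVN and 755 ± 62.7 CPM in the CEA over 12 libraries each, and microglia markers 391 ± 26.3 and 573 ± 76.8 CPM. Of 13 tested TGF-beta partner genes, counting Lrg1 itself, 10 were higher and 3 lower in the CEA, and Smad3, a signal transducer of this pathway, had a log2 fold change of 1.69 ± 0.11 (adjusted p = 4.91e-12 by edgeR). The part of these cell types in the regional difference of Lrg1 was not tested.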

How the data were processed

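The data are mRNA-seq libraries from the PVN and CEA of rats. Per the labels the authors used HISAT2 and featureCounts (versions not given in the sources used here), and the authors deposited raw gene counts from strand-specific libraries in 1 table of 35032 genes and 24 libraries. The labels name the human build GRCh38, the study's methods a rat build, and the table's largest end on chromosome 1 is 282724300, so its coordinates are given without a build. A stray header line inside the table was dropped, and columns were matched to samples by the first header.

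Genes passing filterByExpr were tested with edgeR 4.0.16 in R 4.3.3 (TMM, two-sided quasi-likelihood test, Benjamini-Hochberg adjustment over all genes tested, threshold 0.05), with only the groups compared in each fit. The 13 comparisons were HT or all operated against NC, EA or SEA against HT and EA against SEA in each region, CEA against PVN with treatment as a covariate, and the interaction of region with HT against NC and with EA against HT. DESeq2 1.42.0 was an alternative, beside its size factors in edgeR, no filter, 1 fit of all libraries, a replicate block and leaving out each library. Printed CPM used 1 TMM scaling of all libraries, correlations used log2 CPM with a prior count of 2, and counts of 0 entered CPM means as 0. The fit was tested on simulated data. The study's methods say that brain samples came from different animals of 1 batch, and describe 12 rats for 24 libraries. The labels tie no library to an animal, so p-values measure the spread between these samples, which may be technical.

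Members and gene lists were chosen with earlier results of these data known. Named list genes were, per comparison, up to 8 higher and 8 lower genes that passed, taken by smallest p, or, where fewer than 2 passed, up to 3 higher and 3 lower with an unadjusted p under 0.05 and no overlap. The text names a part of them. By their deviations from group means, same-numbered libraries paired (every r over 0.1) in CEA HT against NC (r of 0.18 to 0.29) and between the NC libraries of the 2 regions (0.13 to 0.29), and in no other of the comparisons. A blocked fit of the NC libraries was added after seeing the data.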

Additional observations from a re-analysis of the deposited data

How the results depend on the processing

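The count of members with an adjusted p under 0.05 was 0 in every treatment comparison by edgeR and depended most on PVN NC replicate 2. In PVN HT against NC it was 0 to 3 when each library was left out in turn. It was 3 without PVN NC replicate 2, beside 3418 of 16939 genes. By DESeq2, 2 members had an unadjusted p under 0.05, beside 1894 of 16727 genes. In PVN operated against NC the count was 0 to 3 on leaving out libraries and 1 by DESeq2, the latter beside 2318 of 17211 genes. There 3 members had an unadjusted p under 0.05 by DESeq2, beside 4868 of 17211 genes. The DESeq2 count at an unadjusted p was 2 in PVN EA against SEA (beside 609 of 16606 genes) and 1 in CEA HT against NC (677 of 16413). It was 3 in CEA operated against NC (508 of 17046), 1 in CEA SEA against HT (522 of 16393) and 1 in CEA EA against SEA (285 of 16322). With a replicate block the count was 0 in each treatment comparison and 2 in CEA against PVN, as without it, and among NC libraries alone the block left the calls of Lrg1 and Socs3 and the lack of one for Stat3 as they were (adjusted p = 0.0389, 0.0444 and 0.402 by edgeR). Of 1697 values under alternatives, 1565 kept their direction and side of the threshold or, for Lrg1 against NC, moved by less than the spread. Another 11 newly passed by an adjusted p and 14 by DESeq2's unadjusted p. A further 2 no longer passed (Stat3 among NC libraries alone, without and with the block). The other 105 changed sign while passing in neither fit or, for Lrg1 against NC, moved by the spread or more. Changes of sign in a value that passed numbered 0. In CEA against PVN, Il1r1 passed without CEA HT replicate 2, Nfkbia without PVN HT replicate 3, and Socs3 without CEA EA replicate 1. The cause was not tested. Depth limits S100a8, S100a9 and Il1b most.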
